A study of Caenorhabditis elegans with 8 samples.

Results

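The genes described here encode G protein-coupled receptors for neuropeptides, biogenic amines and acetylcholine in the nematode Caenorhabditis elegans. They were taken from the deposited table by symbol, as every gene whose name is npr-, frpr-, dmsr-, dop-, ser-, tyra-, octr- or gar- followed by a number. The rule gave 98 genes of 46916, namely 43 npr- genes, 20 frpr- genes, 16 dmsr- genes, 6 dop- genes, 7 ser- genes, 2 tyra- genes, octr-1 and 3 gar- genes. Of these, 81 had a mean of at least 10 normalised read counts over the 8 libraries and were tested, and 17 did not.

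The study used RNA immunoprecipitation followed by sequencing (RIP-seq) to recover RNA with ADR-1, a protein that binds double-stranded RNA and is related to the adenosine deaminases that edit RNA. Both strains lacked their own adr-1 through the adr-1(tm668) allele and carried the same extrachromosomal array, on which the neuronal rab3 promoter drives FLAG-tagged ADR-1 and a green fluorescent protein. Strain HAH25, the control called neural ADR-1, kept adr-2, and strain HAH26, called neural ADR-1;adr-2(-), also carried the adr-2(ok735) deletion. From crosslinked larvae of the first stage (L1) of each strain, RNA of the FLAG immunoprecipitate (IP) and of the lysate before it (input) was sequenced in 2 biological replicates, which gave 8 libraries in 4 groups. IPs from animals without ADR-1 were not analysed here, so recovery with ADR-1 and recovery without it cannot be told apart in an IP. An array of this kind can be lost from some cells and animals. The labels do not say whether replicates were separate cultures, so the p-values measure the spread between these libraries.

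G protein-coupled receptors cross the membrane repeatedly and switch on heterotrimeric G proteins inside the cell when a ligand binds outside. In C. elegans, dopamine, serotonin, octopamine and tyramine tune locomotion, feeding and egg laying through the dop-, ser-, tyra- and octr- receptors, and acetylcholine acts on the muscarinic receptors of the gar- genes. The npr-, frpr- and dmsr- receptors answer short neuropeptides, many of them FMRFamide-like peptides (FLPs), and many are made by small sets of neurons, some also by muscle.

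Receptor transcripts were rare, and the inputs held few reads of them. The inputs held 2595323 to 2969937 reads each and the IPs 20950841 to 79185014, and the ribosomal RNA gene rrn-3.1 took 13.9 to 49.6% of a library. The 98 genes together had 558 and 757 reads in control inputs and 249 and 171 in adr-2(-) inputs, against 11088 to 27038 in the IPs. The median gene had 4 and 6 reads in control inputs, 1 read in each adr-2(-) input and 86 to 160 reads in an IP. One read was worth 3.01 and 2.63 normalised read counts in control inputs and 6.40 and 8.91 in those of adr-2(-), but at most 0.324 in an IP. All 98 genes had a read in some library, 97 had a read in all 4 IPs, 52 had a read in all 4 inputs and 7 had none in any input. No receptor gene was at 0 in both control IPs. Of the 13276 genes tested 203 were, a share so small that 0 of the 81 receptors tested lies near it.

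To find which receptors were most abundant, levels were compared per kilobase of exon, the only scale on which different genes are set side by side here. In the mean of the 4 IPs dmsr-1, a receptor through which FLP-13 promotes sleep, had the highest level at 148 normalised read counts per kilobase. It was followed by npr-5, a receptor for FLP-18, at 103 and by the muscarinic genes gar-3 and gar-2 at 101 and 94.8. The next levels were 65.8 for npr-23, 65.1 for dmsr-7, 56.6 for the serotonin receptor gene ser-4, 55.9 for dop-5 and 47.8 for frpr-19. Per kilobase in the mean of the 4 inputs, dmsr-1 was also first of these at 48.6, followed by npr-5 at 34.4, ser-4 at 33.0, npr-23 at 31.5 and gar-3 at 31.1. The counts behind this order in the inputs are small, since dmsr-1 had 77 reads in the 4 inputs together.

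To describe the receptors as a group, their normalised read counts were summed in each library. The sum was 1679 and 1994 in control inputs and 5696 and 2049 in control IPs. It was 1594 and 1523 in adr-2(-) inputs and 4083 and 5661 in adr-2(-) IPs. Control IP replicate 1 and both adr-2(-) IPs thus lay well above every input, and control IP replicate 2 lay just above the higher control input. Relative to the mean input of the same strain the IP sums were 3.101-fold and 1.12-fold in the control and 2.62-fold and 3.63-fold in adr-2(-). The mean was 3872 ± 2578 (SD, n = 2) in the control IPs and 4872 ± 1116 (SD, n = 2) in the adr-2(-) IPs. With 2 libraries against 2 an exact permutation test cannot give a two-sided p below 0.333, which was the p of IP against input within each strain. The 4 IPs against the 4 inputs gave p = 0.0286, the smallest that this exact two-sided test allows. The test takes the 8 libraries as independent. It leaves out the strain and the lysate that an IP and an input may share.

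**Figure D1:**
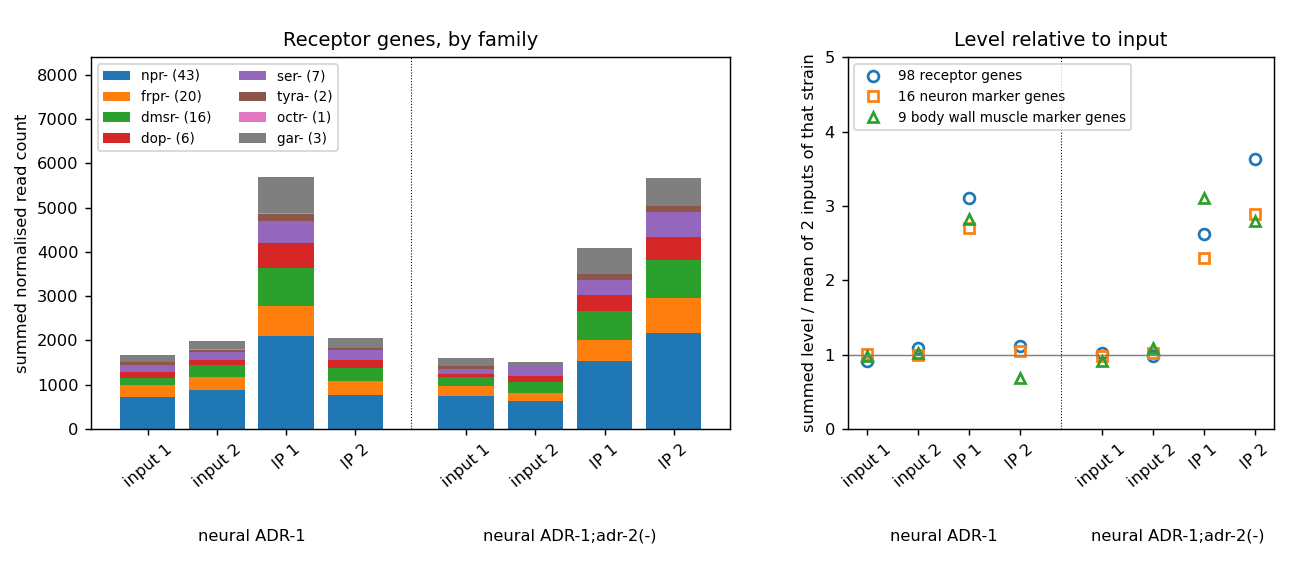
The left panel plots the summed normalised read count of the 98 receptor genes in each of the 8 libraries, stacked by family with the number of genes in brackets, and the right panel plots the summed level of receptor, neuron marker and body wall muscle marker genes divided by the mean of the 2 inputs of the same strain. Control IP replicate 2, at 2049, stands near the inputs for all 3 gene lists, whereas the other 3 IPs stand at 4083 to 5696 for the receptors.

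Markers of neurons and body wall muscle moved with these sums, and those of other tissues differed in pattern. The 16 neuron marker genes summed to 8959 to 9352 in the 4 inputs, 24402 and 9450 in control IPs, and 21045 and 26579 in adr-2(-) IPs. The 9 body wall muscle genes summed to 25582 to 37585 in the inputs, 103769 and 25319 in control IPs, and 87573 and 78942 in adr-2(-) IPs. Of these lists 10 of 16 neuron genes and 4 of 9 muscle genes were higher in adr-2(-) IP than input by the test used below. Of all genes tested 14.3% were. The 10 intestine genes summed to 72273 to 209361 in the inputs and 9794 to 29981 in the IPs. Of the 10, 6 were lower in adr-2(-) IP, where 10.4% of all genes tested were. The 9 epidermis genes summed to 11230 and 2558 in control IPs and 8742 and 2066 in adr-2(-) IPs, over 2142 and 2248 in control inputs and 6653 and 5958 in adr-2(-) inputs. The 7 germline genes summed to 1068 and 1930 in control IPs and 1256 and 640.3 in adr-2(-) IPs, over 2560 and 2661 in control inputs and 749 and 1006 in adr-2(-) inputs. In the control none of the neuron or muscle genes was called higher or lower in IP than input, where 0.535% and 2.84% of all genes tested were. The part of muscle RNA in the receptor values was not tested.

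IP was then compared with input gene by gene in the control. A gene was called at a Benjamini-Hochberg adjusted p under 0.05 over all genes tested and a difference of at least 1 in log2(value + 1), by limma over all 8 libraries. In the control 0 of the 81 receptor genes were called higher and 0 lower, where 0.535% of all genes tested were higher and 2.84% lower. Unadjusted p-values under 0.05 were found for 5 higher genes (dmsr-8, gar-1, dmsr-1, dop-6 and ser-7) and 0 lower ones, against 8.47% and 9.99% of all genes, and DESeq2 and edgeR on the recovered reads called 0. The median difference was 0.98 over the receptor genes and 0.11 over all genes tested, as log2(value + 1). Of the 81 genes 30 had both control IPs above both control inputs, or 37%, against 26.1% of all genes tested, and 3 (frpr-11, npr-20 and npr-30) had both below, or 3.7% against 24.6%.

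The highest difference of the control belonged to dmsr-8, with 3.01 and 18.4 normalised read counts in the inputs and 80.8 and 32.3 in the IPs. Both IPs were above both inputs, and the difference was 2.56 ± 0.87 (SE) in log2 with an adjusted p of 0.175. For dmsr-1 the values were 54.1 and 79.1 in the inputs and 399 and 95 in the IPs. The groups did not overlap, the second IP lay close to the higher input, and the log2 difference was 1.56 ± 0.64 (SE, adjusted p = 0.241).

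This closeness of the second control IP to the inputs was seen across the receptors. Control IP replicate 1 was above replicate 2 for 78 of the 81 genes tested, or 96.3%, against 51.4% of all genes, and the exceptions were frpr-11, npr-11 and npr-20. The median difference between these replicates was 1.24 in log2(value + 1) over the receptors and 0.05 over all genes. Replicate 1 was above both control inputs for 74 receptor genes and replicate 2 for 31, while for all genes tested these shares were 46.1% and 46.2%. In adr-2(-) the second replicate was the higher for 68 genes, or 84.0% against 49.4%, with a median difference of 0.61. Leaving out control IP replicate 2 left 1 control IP. The fitted log2 differences of control IP and input were then 2.59 for dmsr-1, 2.12 for dmsr-7, 2.41 for dop-5, 2.90 for gar-1 and 2.38 for gar-2. These genes were singled out after that fit was seen. The muscle genes shared this split, since all 9 were higher in control IP replicate 1, as were 14 of 16 neuron genes. They did not share that of adr-2(-), where the median difference of replicate 2 and replicate 1 was -0.15 for muscle and -0.02 for neuron genes.

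**Figure D2:**
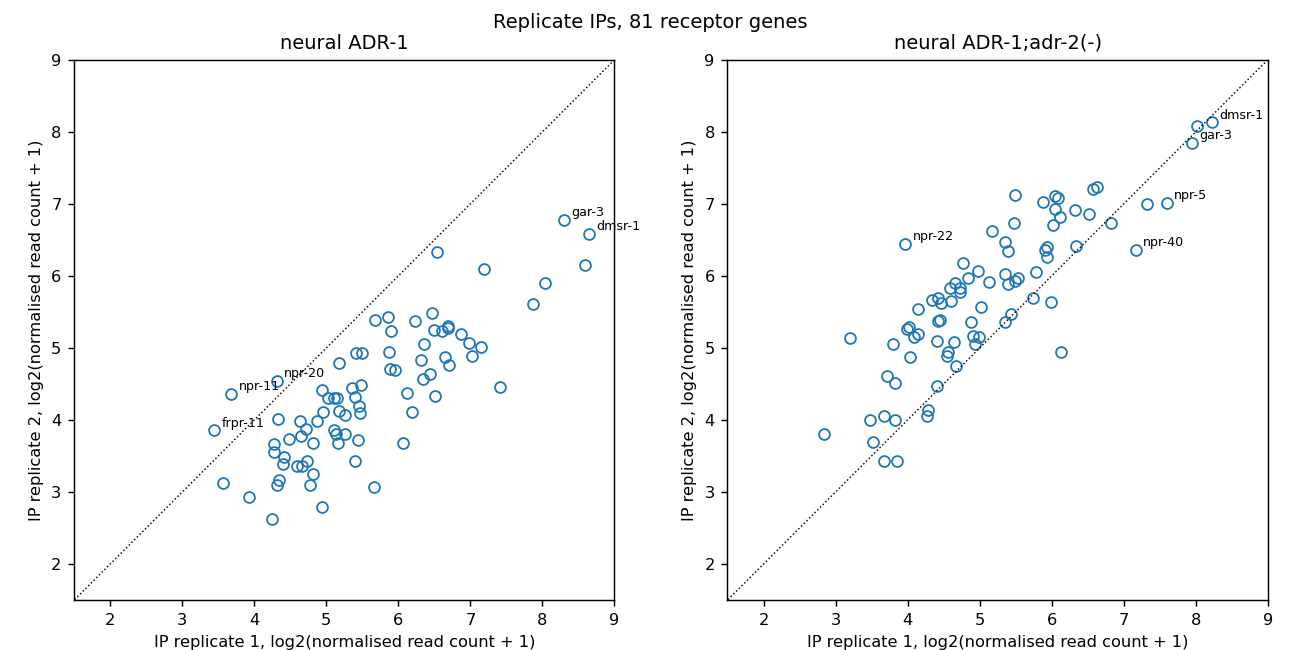
Each circle is one of the 81 receptor genes tested, with the level in IP replicate 1 on the horizontal axis and in IP replicate 2 on the vertical axis, both as log2(normalised read count + 1), for neural ADR-1 on the left and neural ADR-1;adr-2(-) on the right. The dotted line marks equal values, and 78 circles lie below it on the left while 68 lie above it on the right.

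In adr-2(-) animals 18 receptor genes were called higher in IP than input and 0 lower. This is 22.2% of the 81 tested, against 14.3% of all genes tested that were called higher and 10.4% that were called lower. The median difference was 1.98 over the receptors and 0.23 over all genes, as log2(value + 1), and 1.79 when the 6 tested receptors at 0 in both inputs were set to the fold of the pooled IP level over a floor of 3 reads in both inputs together. Both adr-2(-) IPs were above both inputs for 59 of the 81 genes, or 72.8% against 39.1% of all genes, and below both for npr-1, npr-20, npr-30 and ser-5, or 4.94% against 30.7%. The calls rest on few input reads, as 6 of the 18 had 0 reads in both adr-2(-) inputs and 8 had 1 to 3 reads. They also rest on both IPs, since 3 calls were left without adr-2(-) IP replicate 1 (npr-4, npr-15 and ser-6) and 2 without replicate 2 (npr-4 and npr-15). Without adr-2(-) input replicate 2 there were 11 calls and without control input replicate 2 there were 10. Leaving out a library also changed the share of all genes called, and whether the receptors changed more than all genes was not tested. Without adr-2(-) IP replicate 1 and without replicate 2 the receptor median was 2.15 and 1.78, against 0.20 and 0.255 over all genes. edgeR on the recovered reads called 7 (dop-1, frpr-19, npr-2, npr-4, npr-15, npr-37 and ser-1). It called 10.4% of all genes tested higher, so 7 of 81 was not above that share. DESeq2 on the recovered reads called 14, of which 10 were among the 18, and 14.2% of all genes tested. Called by neither edgeR nor DESeq2 were dop-4, ser-3, npr-6, npr-13, npr-19, npr-35, frpr-15 and frpr-18. With the threshold at 0.001 limma called 0, where 0.226% of all genes tested were higher.

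**Figure D3:**
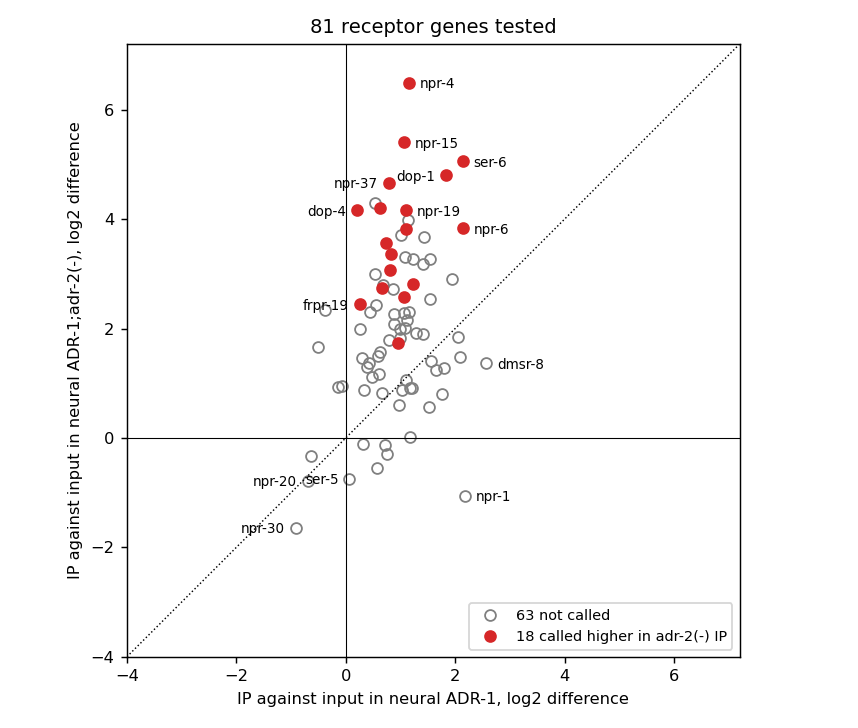
Each circle is one of the 81 receptor genes tested, with the fitted difference of IP and input in neural ADR-1 on the horizontal axis and in neural ADR-1;adr-2(-) on the vertical axis, both in log2(normalised read count + 1). The 18 filled circles were called higher in adr-2(-) IP, the dotted line marks equal differences, and npr-30 lies below 0 on both axes.

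The dopamine receptors were described first among the amine receptors. The gene dop-1 (WBGene00001052, chromosome X, 4411301 to 4418851, build WBcel235), which encodes a D1-like receptor, was measured at 18.1 and 13.2 normalised read counts in control inputs, 89.2 and 36.96 in control IPs, 0 and 8.91 in adr-2(-) inputs, and 57.99 and 129 in adr-2(-) IPs. All 4 IPs were above all 4 inputs, and the adr-2(-) difference was 4.80 ± 1.09 in log2 (SE, adjusted p = 0.0165). It stands on 1 read in the adr-2(-) inputs, and the ratio of pooled levels was 21.6 with a 95% counting interval from 3.87 to 855.

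For dop-2, which encodes a D2-like receptor, the adr-2(-) values were 6.40 and 26.7 in the inputs and 66.9 and 135 in the IPs. These did not overlap and gave a difference of 2.75 ± 0.80 in log2 (SE, adjusted p = 0.0386). The control values of dop-2, 33.1 and 42.2 in the inputs and 96.2 and 36.6 in the IPs, did overlap. For dop-4, a D1-like receptor of the invertebrate type, control inputs had 12.03 and 13.2, control IPs 18.4 and 11.6, both adr-2(-) inputs 0 and adr-2(-) IPs 13.1 and 21.7. Its IP levels in adr-2(-) were thus like its control inputs. The fold of IP over input in adr-2(-) was at least 1.42, as the pooled IP level over a floor of 3 reads in both inputs together (adjusted p = 0.0128). Neither DESeq2 nor edgeR called dop-4.

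The other 3 dop- genes were not called. The D2-like dop-3 had adr-2(-) inputs of 12.8 and 44.5 and IPs of 42.4 and 43.5, which overlap. For dop-5, a family member by sequence, the adr-2(-) IPs at 159 and 127 were above the inputs at 38.4 and 35.6, a difference of 1.91 ± 0.72 in log2 with an adjusted p of 0.0875. Its control IPs were 233 and 47.7 and its control inputs 54.1 and 34.3. In dop-6, also placed by sequence, 75.8% of the possible 100-base exon reads occur once in the genome, the lowest share of the 98 genes, and reads from the rest were not counted because only reads with a single location were kept.

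Among the serotonin receptors, ser-1 had values of 30.1 and 29.0 (control inputs), 99.1 and 28.5 (control IPs), 6.40 and 8.91 (adr-2(-) inputs) and 68.4 and 112 (adr-2(-) IPs). The adr-2(-) groups did not overlap, the difference was 3.37 ± 0.71 in log2 (SE, adjusted p = 0.0131), and the pooled ratio on 2 input reads was 11.04 (95% counting interval 3.05 to 91.3). The serotonin receptor genes ser-4, ser-5 and ser-7 were not called. In ser-4 the second adr-2(-) input, at 89.1, was above the first adr-2(-) IP, at 65.4. In ser-5 both adr-2(-) inputs, at 44.8 and 53.4, were above both IPs, at 20.4 and 40.6, with a difference of -0.74 ± 0.65 in log2 (SE, adjusted p = 0.429). For ser-7 the IPs were above the inputs in each strain, with 34.8 and 11.8 over 3.01 and 5.27 in the control and 20.99 and 48.3 over 6.40 and 17.8 in adr-2(-), and adjusted p-values of 0.266 and 0.261.

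The octopamine receptor genes ser-6 and ser-3 were both called. For ser-6 (WBGene00021897, chromosome IV, 2960098 to 2964401) the control inputs had 3.01 and 5.27, the control IPs 34.1 and 12.9, both adr-2(-) inputs 0 and the adr-2(-) IPs 20.4 and 50.9. Every IP was above every input, and the adr-2(-) fold was at least 2.69 (adjusted p = 0.00946). For ser-3, better covered with 7 reads in the adr-2(-) inputs and 31 in the control inputs, the inputs were 42.1 and 44.8 in the control and 32.0 and 17.8 in adr-2(-). The IPs of ser-3 were 91.6 and 79.8 in the control and 64.03 and 103.8 in adr-2(-), again all above every input. The difference was 1.73 ± 0.54 in log2 in adr-2(-) (SE, adjusted p = 0.0473) and 0.96 ± 0.54 in the control (SE, adjusted p = 0.370). The adr-2(-) call of ser-3 was lost with DESeq2, with edgeR and without the rows that did not match their deposited mean. The remaining octopamine receptor gene, octr-1, fell under the filter and had 8 reads in the control inputs and 0 in the adr-2(-) inputs.

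No tyramine receptor gene was called. The gene ser-2 had adr-2(-) inputs of 0 and 26.7 and IPs of 79.9 and 84.7, and tyra-2 had 12.8 and 8.91 in the inputs and 62.4 and 48.7 in the IPs. Neither pair of groups overlapped, with differences of 3.98 ± 1.35 and 2.26 ± 0.79 in log2 (SE) and adjusted p-values of 0.063 and 0.07. For tyra-3, with 38.4 and 8.91 in the inputs and 60.1 and 75.9 in the IPs, the difference was 1.79 ± 0.85 (SE, adjusted p = 0.157). With DESeq2 on the recovered reads ser-2 was called (adjusted p = 0.0421), and tyra-2 was called when either control IP was left out.

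Among the amine and muscarinic receptors gar-3 and gar-2 had the most reads, in the inputs and in the IPs. For gar-3, which couples to Gq, control inputs held 84.2 and 92.2, control IPs 315 and 109, adr-2(-) inputs 83.2 and 17.8, and adr-2(-) IPs 245 and 230. Each IP was above each input, and the difference was 2.58 ± 0.75 in log2 in adr-2(-) (SE, adjusted p = 0.0385) and 1.06 ± 0.75 in the control (SE, adjusted p = 0.477). For gar-2, which couples to Gi/o, control inputs held 75.2 and 71.1, control IPs 385 and 70.1, adr-2(-) inputs 76.8 and 35.6, and adr-2(-) IPs 258 and 269. Control IP replicate 2 of gar-2 was below both control inputs, and the other IPs were above every input. The adr-2(-) difference of gar-2 was 2.31 ± 0.76 in log2 (SE, adjusted p = 0.0565). DESeq2 on the recovered reads called gar-2 (adjusted p = 0.0294) and edgeR did not. In gar-1 all 4 IPs, at 35.7 to 120, were above all 4 inputs, at 9.02 to 35.6, although the lowest IP and the highest input nearly met.

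**Figure D4:**
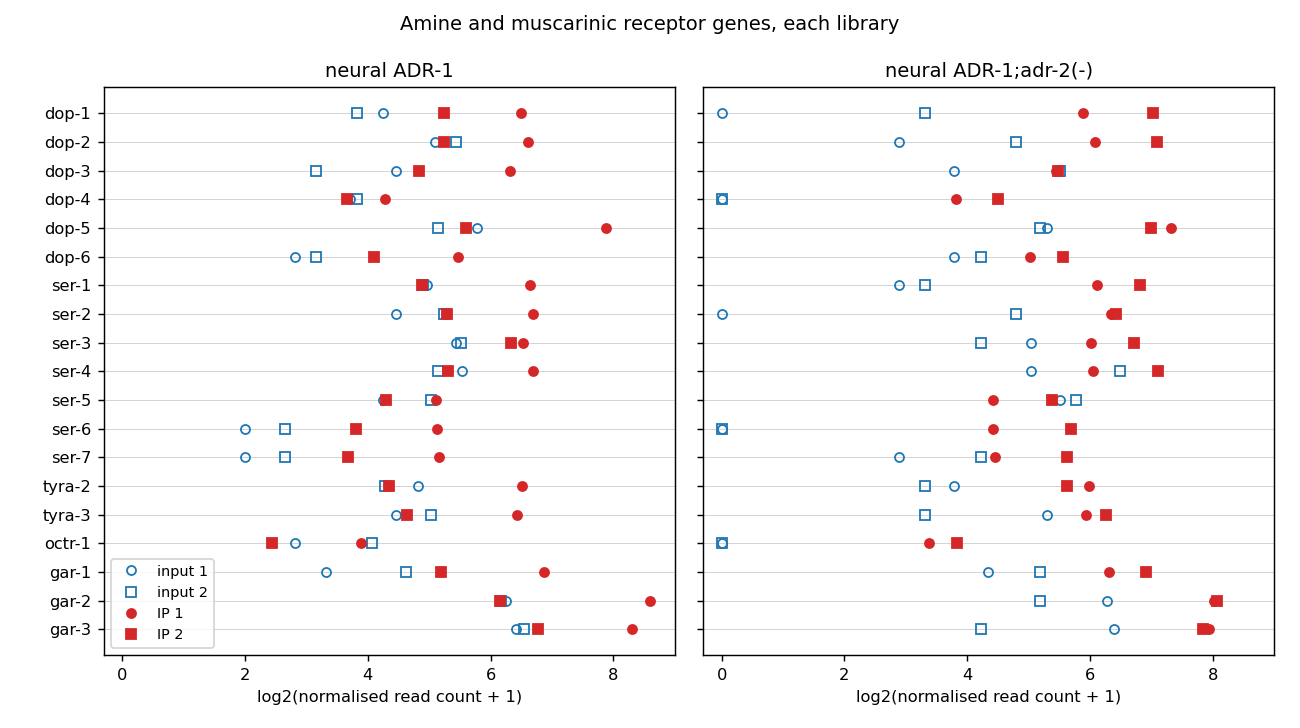
The 19 amine and muscarinic receptor genes are listed on the vertical axis and the horizontal axis gives log2(normalised read count + 1) in each library, with inputs as open blue marks and IPs as filled red marks, circles for replicate 1 and squares for replicate 2. In the right panel both IPs stand to the right of both inputs for most genes, and dop-4, ser-6 and octr-1 have both inputs at 0; in the left panel the filled squares lie among the inputs for many genes.

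Among the 43 npr- genes 40 were tested and 8 were called higher in adr-2(-) IP (npr-2, npr-4, npr-6, npr-13, npr-15, npr-19, npr-35 and npr-37), where 14.3% of all genes tested were. Of these npr-6, npr-13, npr-19 and npr-35 were called by neither DESeq2 nor edgeR. The FLP-18 receptor gene npr-4 (WBGene00007635, chromosome X, 12536978 to 12551684) had 18.1 and 29.0 in the inputs and 103 and 26.1 in the IPs of the control, and 0 in both inputs and 65.1 and 121 in the IPs of adr-2(-). The control groups overlapped and the adr-2(-) groups did not, and IP over input in adr-2(-) was at least 7.40-fold (adjusted p = 0.00235), the highest of these bounds among the 6 called genes at 0 in both adr-2(-) inputs. For npr-15 (WBGene00012084, chromosome III, 3683253 to 3694672) control inputs had 12.03 and 5.27, control IPs 27.1 and 11.8, both adr-2(-) inputs 0 and adr-2(-) IPs 27.5 and 61.95. The adr-2(-) fold of npr-15 was at least 3.44 (adjusted p = 0.00635).

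The genes npr-13 and npr-19, the latter linked to endocannabinoid signalling, were called on lower levels. Their adr-2(-) inputs were 0 and their adr-2(-) IPs were 18.4 and 16.5 for npr-13 and 18.3 and 15.6 for npr-19, which allow folds of at least 1.60 and 1.56. For npr-37, with adr-2(-) inputs at 6.40 and 0 and IPs at 43.6 and 105, the pooled ratio was 16.96 (95% counting interval 3.03 to 671). The pooled ratios of npr-2, npr-6 and npr-35 were 9.07 (2.50 to 75.1), 9.40 (1.68 to 373) and 6.98 (1.92 to 57.8), each on 1 or 2 input reads. In npr-5, the most abundant npr- gene per kilobase, the adr-2(-) IPs at 193 and 128 were above the inputs at 51.2 and 8.91. The difference was 2.80 ± 0.90 in log2 with an adjusted p of 0.0536. DESeq2 on the recovered reads called npr-5 (adjusted p = 0.0362) and edgeR did not.

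One tested receptor gene, npr-30, had all 4 IPs below all 4 inputs, or 1.23% of the receptors against 9.68% of all genes tested. It was singled out after its values were seen. Its inputs were 18.1 and 18.4 in the control and 51.2 and 26.7 in adr-2(-), and its IPs were 10.9 and 7.76 in the control and 10.4 and 12 in adr-2(-). The differences were -0.92 ± 0.70 in the control (SE, adjusted p = 0.509) and -1.64 ± 0.70 in adr-2(-) (SE, adjusted p = 0.120), so neither passed. Of its exon bases 18.5% are shared with another gene on the same strand, and reads there were not assigned to it alone. The opposite pattern, all 4 IPs above all 4 inputs, was seen for 17 of the 81 genes, or 21% against 9.79% of all genes tested. These were dop-1, ser-2, ser-3, ser-6, gar-1, gar-3, npr-6, npr-10, npr-12, npr-21, npr-35, npr-37, frpr-4, frpr-7, frpr-8, frpr-15 and dmsr-4.

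Of the 20 frpr- genes 15 were tested and 3 were called higher in adr-2(-) IP, beside the same 14.3% of all genes. The best covered was frpr-19, with 81.2 and 84.3 in control inputs, 146 and 67.1 in control IPs, 25.6 and 17.8 in adr-2(-) inputs, and 97.7 and 150 in adr-2(-) IPs. The adr-2(-) IPs of frpr-19 were above its adr-2(-) inputs but near its control inputs, and the difference was 2.45 ± 0.55 in log2 (SE, adjusted p = 0.0155). The FLP-2 receptor gene frpr-18, with adr-2(-) inputs at 6.40 and 8.91 and IPs at 39.9 and 87.6, had a difference of 2.81 ± 0.80 (SE, adjusted p = 0.0361). The gene frpr-15, with 6.40 and 0 in the inputs and 19.2 and 49.6 in the IPs, had 3.55 ± 1.09 (SE, adjusted p = 0.0453). Neither frpr-18 nor frpr-15 was called by DESeq2 or edgeR. The row of frpr-6 did not match its deposited mean, 9.72 against 4.85 over its 8 values, and frpr-6 fell under the filter.

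Of the 16 dmsr- genes 8 were tested and 0 were called in any comparison, although all 8 had a fitted difference above 0 in each strain (0.40 to 2.56 in the control and 0.91 to 3.70 in adr-2(-), in log2). The largest by level was dmsr-1 (WBGene00010191, chromosome V, 11438764 to 11441638), whose adr-2(-) values of 102 and 116 in the inputs and 299 and 280 in the IPs did not overlap and differed by 1.40 ± 0.64 in log2 (SE, adjusted p = 0.140). For dmsr-7 the adr-2(-) IPs at 112 and 105 were above the inputs at 25.6 and 17.8, a difference of 2.29 ± 0.72 with an adjusted p of 0.0503. With TMM scaling dmsr-7 was called (adjusted p = 0.0394). For dmsr-6 the adr-2(-) IPs were 44.1 and 138 and the inputs 12.8 and 26.7.

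The dmsr- genes that were not tested were singled out after their values were seen, because all 8 are neighbours. The genes dmsr-9 to dmsr-16 lie on the minus strand of chromosome V between 6798151 and 6828886 (WBcel235), with 1 other protein-coding gene inside that stretch of 30736 bases. Their means over the 8 libraries were at most 3.31 normalised read counts, below the 21.4 of the lowest of the other 8 dmsr- genes, which are dispersed over 4 chromosomes. The 8 neighbours together had 3 reads in the 4 inputs and 332 in the 4 IPs, against 206 and 11770 for the dispersed genes. Within the run dmsr-15 had 1 read in all 8 libraries and dmsr-10 had 6, whereas dmsr-11 had 94 reads in the IPs. At least 96.3% of the possible 100-base exon reads of each neighbour occur once in the genome. The longest stretch that repeats is shown because no 100-base read from within it can be placed. It is 108 bases of coding sequence that dmsr-12 (chrV:6805839-6805946, minus strand) and dmsr-13 (chrV:6819157-6819264, minus strand) share letter for letter, given from 5′ to 3′ in the reference.
dmsr-12 and dmsr-13: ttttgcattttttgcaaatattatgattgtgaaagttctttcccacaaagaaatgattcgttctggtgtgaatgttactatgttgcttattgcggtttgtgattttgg

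**Figure D5:**
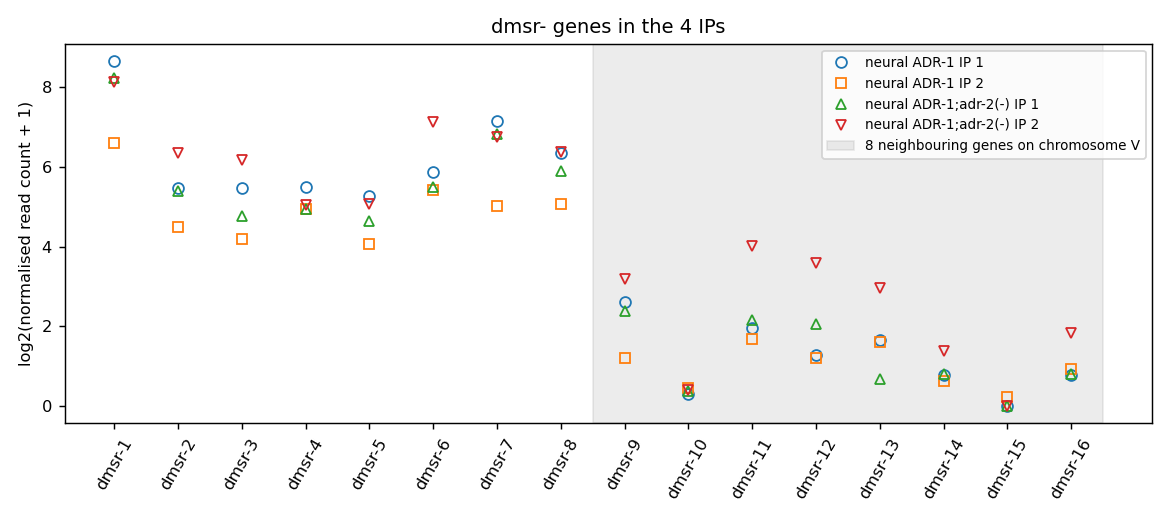
The 16 dmsr- genes are on the horizontal axis and the vertical axis gives log2(normalised read count + 1) in each of the 4 IPs. The 8 neighbouring genes of chromosome V, shaded, all have lower marks than dmsr-1 to dmsr-8 within the same library.

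The inputs of the strains were compared to see whether receptor levels differed before immunoprecipitation. Of the 81 genes 2 were called lower in adr-2(-) input and 0 higher, or 2.47% against 9.36% of all genes tested that were lower and 5.03% that were higher. They were npr-4, with 18.1 and 29.0 in the control and 0 in both adr-2(-) inputs, and dop-4, with 12.03 and 13.2 in the control and 0 in both. Counting the floor of 3 reads over both libraries, npr-4 was at least 2.14-fold and dop-4 at least 1.13-fold lower (adjusted p of 0.0135 and 0.0279). Both calls were lost with DESeq2 and with edgeR on the recovered reads. Without control input replicate 1, without control input replicate 2 or without adr-2(-) input replicate 2, 0 receptors were called. Leaving out either control IP kept the fitted differences between the inputs, such as -4.58 for npr-4 in log2. It changed only the shared estimate of the spread, and with it the calls. In the same comparison 5 of 7 germline genes were called lower, with a median difference of -2.51 over the list, and all 10 intestine genes were above 0 with a median of 1.05 and 0 called. The part of these tissues in the receptor values was not tested, and in bulk samples fewer cells of a type and less RNA per cell cannot be told apart.

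The size of the difference between the inputs in the summed receptor level depended on the scale. In normalised read counts the adr-2(-) inputs, at 1594 and 1523, were a little below the control inputs, at 1679 and 1994. As a share of the reads the difference was larger, with 188 (95% Wilson interval 173 to 204) and 257 (240 to 276) receptor reads per 1000000 reads in the control against 88.4 (78.1 to 100) and 65.9 (56.7 to 76.5) in adr-2(-). The intervals cover counting error only. Both adr-2(-) inputs were below both control inputs for 26 of the 81 genes, or 32.1% against 37.1% of all genes tested, and above both for 11, or 13.6% against 38.3%. The median difference between the inputs was -0.70 over the receptors and 0.01 over all genes, and -0.44 with genes at 0 set to their bound. With every library rescaled to the same total, the median over all genes was -1.25 and 17 receptors were called lower. The share of all genes called lower on that scale is not given here, so this count is not read as a result about the receptors.

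Between the IPs of the strains no receptor gene passed the test. Of the 81 genes 0 were called higher and 0 lower by limma, where 1.53% of all genes tested were higher and 0.0% lower. Unadjusted p-values under 0.05 were found for 0 receptors (2.17% of all genes higher and 0.0904% lower), and edgeR and DESeq2 called 0. The smallest p was that of npr-25, with 40.1 and 20.7 in the control IPs and 35.2 and 97.6 in the adr-2(-) IPs, which overlap (log2 difference 1.00 ± 0.69, SE, adjusted p = 0.982). Next came npr-15 at 1.16 ± 0.93 and npr-23 at 0.87 ± 0.71. The median difference was 0.51 over the receptors and -0.04 over all genes. Replicate 1 of the control IP was higher than replicate 1 of the adr-2(-) IP for 79 of the 81 genes, or 97.5% against 59.6%, whereas the receptors summed to 2049 in the second control IP and 5661 in the second adr-2(-) IP.

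The last comparison asked whether IP over input differed between the strains, as the ratio of ratios. No receptor gene of the 81 passed, while 1.93% of all genes tested did so upwards and 0.158% downwards. Unadjusted p-values under 0.05 belonged to 7 higher receptors (npr-4, npr-15, dop-4, frpr-19, npr-37, npr-13 and ser-1) and 0 lower ones, against 10.6% and 7.2% of all genes, and edgeR and DESeq2 called 0. The smallest p was that of npr-4, with a difference of 5.34 ± 1.19 in log2 (SE, adjusted p = 0.069), whose size depends on the pseudocount because its adr-2(-) inputs are at 0. Of these 7 genes frpr-19 had the most input reads, 59 in the control and 6 in adr-2(-), and a ratio of ratios of 2.19 ± 0.77 (SE, adjusted p = 0.194). A receptor called in adr-2(-) and not in the control was therefore not shown to differ between the strains. Without control IP replicate 1, which left 1 control IP, the fitted values were 2.74 for frpr-19, 6.31 for npr-4 and 3.42 for ser-1. These genes too were singled out after the fit was seen. The lowest fitted value belonged to npr-1, the FLP-18 and FLP-21 receptor gene known from aggregation behaviour, at -3.24 ± 1.63 (SE, adjusted p = 0.340), with 0 and 10.5 in control inputs and 32.0 and 26.7 in adr-2(-) inputs.

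Genes that act with these receptors were then counted from lists chosen by function. In a list of other receptors, most of them for peptides, 21 genes were tested. Of these 6 were called higher in adr-2(-) IP than input, where 14.3% of all genes tested were. They included nmur-3, at 0 in both adr-2(-) inputs, and gnrr-5, at 0 and 8.91. Of 41 heterotrimeric G protein and effector genes tested 23 were higher there, including pkc-1, a protein kinase C, at 3.95 ± 0.74 and gsa-1, the Gs alpha subunit, at 3.40 ± 0.62 in log2 (SE). Of the 41 genes 6 were lower in adr-2(-) input, against 9.36% of all genes tested, and they included egl-30, the Gq alpha subunit through which gar-3 acts, with 2289 and 2179 in control inputs and 359 and 258 in adr-2(-) inputs. Also among the 6 was gpa-16, a G alpha gene, with 253 and 287 against 32.0 and 26.7. Of 23 regulators 10 were higher in adr-2(-) IP and of 12 genes for amine and acetylcholine supply 4 were, among them the dopamine transporter gene dat-1. In the control IP the only gene called higher in these 4 lists was eat-16, a regulator that turns Gq signalling down, with 256 and 279 in the inputs and 1033 and 734 in the IPs (log2 difference 1.70, adjusted p = 0.0258). The only gene of these lists called lower there was pde-4, a phosphodiesterase that degrades cyclic AMP, with 406 and 469 in control inputs and 0 in both control IPs (adjusted p = 3.51e-06). Its adr-2(-) inputs were 83.2 and 62.3 and its adr-2(-) IPs 1252 and 1756, and it was the only gene of these lists called between the IPs of the strains (adjusted p = 1.06e-06) and in the ratio of ratios (adjusted p = 3.03e-06), higher in adr-2(-) both times. It is 1 of the 203 tested genes at 0 in both control IPs, which held 48003970 and 45578007 reads. Between the IPs of the strains the number of genes called higher was also 203. The origin of these zeros was not tested. In 223 rows of the deposited data the authors' mean did not match the mean of the values. Whether pde-4 or the other genes at 0 in both control IPs lie in such rows is not given here. The p-values of pde-4 are therefore not read as showing a difference between the strains. The medians of IP over input in adr-2(-) were 2.50 for the list of other receptors, 2.31 for the G protein list, 1.32 for the regulators and 1.86 for the supply genes. They stand beside 1.98 for the 81 receptor genes tested and 0.23 for all genes.

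By position, 34 of the 98 receptor genes lie on chromosome X and 28 on chromosome V. This is 34.7% and 28.6%, where 13.7% and 25.02% of all protein-coding genes in the annotation lie. Chromosomes II and IV carry 12 each, III 7 and I 5.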

How the data were processed

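By the study's methods, libraries came from poly(A) selected RNA and were read from a single end with strand kept. The authors mapped reads to ce11 (WBcel235) with STAR (version 2.7.8a per the submitters' processing notes), kept reads with 1 location, counted them per WormBase gene on the sense strand with featureCounts, and divided the counts by a DESeq2 size factor for each library. The deposited signal per gene and library is this normalised read count. Each of the 8 sample columns entered the fits. The deposited table also holds the authors' mean over the 8 libraries and columns of the authors' own comparison (a log2 ratio with its standard error, a test statistic, a p-value and an adjusted p-value), which were not used.

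Of 46917 rows 1 identifier was repeated, which left 46916 genes, and 46892 identifiers were named from Ensembl release 115. In 223 rows the deposited mean differed from the mean of the 8 values by more than 0.02 and 0.1%. Reads were recovered by dividing by the value of 1 read, and 100.0% of the values above 0 in the other rows came out whole within 0.006. The reads per library and their precision are given with the results, and intervals are 95% counting intervals (Wilson for shares, exact for ratios) or floors of 3 reads, and leave out PCR duplication, which was not measured.

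The test was limma 3.58.1 under R 4.3.3 (lmFit, then eBayes with trend) on log2(value + 1), with 4 group means, no replicate block and a filter at a mean of 10, which left 13276 genes. Sizes of change on this scale depend on the pseudocount for low genes. The receptor median in adr-2(-) IP against input was 1.98 in this fit, 2.13 with a pseudocount of 0.5 and 1.22 with 10. On the recovered reads it was 1.70 with edgeR and 1.71 with DESeq2, so the fitted sizes are not lower bounds. Alternatives were a replicate block, pseudocounts of 0.5 and 10, no filter or a mean of at least 50, rescaling to the same total or by TMM, count tests on the recovered reads by edgeR 4.0.16 and DESeq2 1.42.0, removal of the mismatched rows, an adjusted p under 0.001, and leaving out each library. Only the IPs of both strains deviated together by replicate number (r = 0.457 across genes, otherwise -0.01 to 0.037), so the numbers were not taken to pair libraries. Read placement was checked by cutting the exons of each gene into 100-base windows and searching the genome.

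The genes named are all amine and muscarinic receptors, the 3 npr-, frpr- and dmsr- genes with the highest mean, the genes called or with the smallest p in each comparison, and rows that did not match. Others were named after their values were seen. The members and lists were chosen with earlier results of these data known. Of the other lists seb-2, gnrr-8, nmur-4 and rgs-8 were not analysed here. Python 3.11.15, pandas 2.3.3 and scipy 1.17.1 were used.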

Additional observations from a re-analysis of the deposited data

How the results depend on the processing

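In adr-2(-) IP against input the count of receptors called higher was 18. It was 4 with a mean of at least 50 (fewer genes tested), 48 with libraries rescaled to the same total, 7 with edgeR and 14 with DESeq2. At an adjusted p under 0.001 the count was 0. It also changed when 1 library was left out. Of all genes tested 14.3% were called higher in the main fit. The share was 36.8% with the same total, 10.4% with edgeR, 14.2% with DESeq2 and 17.2% with a mean of at least 50. All 18 receptors stayed among the 48, the 7 were all among the 18, and 10 of the 14 were. With the replicate number as a block it was 25, of which 17 were among the 18, and with the block within strain 18, of which 13 were. Both blocks lost ser-3 and added gar-2, npr-5, npr-7, npr-28 and ser-2. The block by number also added dmsr-7, npr-21 and tyra-2, and the block within strain lost frpr-15, frpr-18, npr-6 and npr-19. Between the strains the block within strain was chosen after seeing the data. It lost dop-4 between the inputs, which left 1 of 2 calls, and the blocks changed no other count of calls by over 1.5 times. In the control the count called higher, 0, ranged from 0 to 5 with 1 library left out. The count lower in adr-2(-) input, 2, was 4 with a pseudocount of 0.5, 0 with 10, 1 with no filter, 1 with a mean of at least 50, 17 with the same total, 0 with edgeR, 0 with DESeq2, 0 at an adjusted p under 0.001, and 0 to 6 with 1 library left out. The count of ratios of ratios called higher, 0, was 1 (npr-4) with a pseudocount of 0.5, 5 with the same total, and 0 to 3 with 1 library left out. Where a group was left with 1 library, it was assumed to vary like the other groups. In adr-2(-) IP against input the share of all genes called changed with the setting too. For the other comparisons that share under the alternatives is not given here. The changes in these counts are thus not read as results about the receptors. Rescaling to the same total moved the median difference of all genes in adr-2(-) IP against input from 0.23 to 1.39 and between the inputs from 0.01 to -1.25, in log2. The causes were not tested. With no filter dmsr-9, dmsr-12 and dmsr-14 were called higher in adr-2(-) IP, where 6.6% of all genes in that fit were. Their adr-2(-) inputs held 0 reads. Their pooled adr-2(-) IP levels were 5.46, 5.67 and 1.03, below the floor of 3 reads over both inputs at 11.2. These calls therefore do not show a higher level in IP than input. No direction of a called receptor was reversed by any alternative run. Depth limits the inputs, where 44 and 32 of the 98 receptor genes in the control and 72 and 83 in adr-2(-) had 3 reads or fewer.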
